A study of Mus musculus with 10 samples.

Results

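The 8 genes described here encode the machinery by which antigen-presenting cells load peptides onto major histocompatibility complex (MHC) class II molecules, in mammary gland RNA of adult C57BL/6 mice after a control or a high folic acid (FA) diet. They were H2-Aa, H2-Ab1, H2-Eb1, H2-DMa, H2-DMb1, Cd74, Ciita and Ctss, taken by name from the class II presentation pathway, and each symbol matched 1 of the 46983 genes in the deposited counts. The study asked whether FA intake above requirement alters gene expression in the mammary gland. Virgin female mice were fed a modified AIN93M diet for 4 weeks, holding 1 mg FA/kg in the control group (CFA) or 5 mg FA/kg in the high FA group (HFA), and then all received the same AIN93M maintenance diet for a further 4 weeks. The right thoracic gland with its fat pad was taken whole at post-natal day 130, and RNA-seq gave 5 libraries a group, 1 for each mouse. The CFA libraries are T1224, T1234, T1314, T1324 and T1334, and the HFA libraries are T2214, T2224, T2234, T2314 and T2334.

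Class II molecules are pairs of an alpha and a beta chain that show peptides from endosomes to CD4 T cells. They are made mainly by dendritic cells, macrophages and B cells, all of which are found in or near the mammary gland, and lymph nodes lie in or beside its fat pads. The invariant chain fills the groove of a new molecule, proteases such as cathepsin S trim it away, H2-DM exchanges the last fragment for a peptide, and the transactivator CIITA switches most of these genes on.

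CIITA acts through proteins that bind short elements called the X and Y boxes, just upstream of class II genes. Promoter stretches of members and of further class II genes are shown first, and their part in the levels below was not tested. In RefSeq promoters of build GRCm38.p6, which run from 250 bases before to 50 after a gene's start, 5 of the 8 genes had an entry, and H2-Ab1, Cd74 and Ciita had none. The search was for GNAAC, a core of the X box, followed on the same strand by GATTGG, the Y box, with 25 to 40 bases from start to start. Both strands were read, and the letters were chosen after these sequences had been seen. The X-then-Y arrangement was found in H2-Aa, H2-Eb1 and H2-DMb1 among the members, and in H2-Oa, H2-Ob and H2-Eb2 among 4 further class II genes. It occurred in 303 of 32851 promoters of the same length (0.922%), while GATTGG alone occurred in 16.1%. In the lines that follow, capitals mark the GNAAC and GATTGG letters, and for Ctss a match to GAAANNGAA, an interferon-type element found in 8.56% of promoters. Each is given 5′ to 3′ on the gene's own strand.
H2-Aa, chr17:34287859-34287916, minus strand: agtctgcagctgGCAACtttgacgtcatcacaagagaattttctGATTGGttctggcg
H2-Eb1, chr17:34305764-34305820, plus strand: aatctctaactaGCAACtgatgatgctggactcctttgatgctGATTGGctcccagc
H2-DMb1, chr17:34153085-34153142, plus strand: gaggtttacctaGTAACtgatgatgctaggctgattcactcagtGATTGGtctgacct
H2-Oa, chr17:34092291-34092348, plus strand: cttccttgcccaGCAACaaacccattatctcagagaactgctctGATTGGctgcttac
H2-Ob, chr17:34238806-34238860, plus strand: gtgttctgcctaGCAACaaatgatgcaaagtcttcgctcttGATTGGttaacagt
H2-Eb2, chr17:34325531-34325587, plus strand: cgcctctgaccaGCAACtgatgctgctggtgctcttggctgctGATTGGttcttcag
Ctss, chr3:95526753-95526785, plus strand: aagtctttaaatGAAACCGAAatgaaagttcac

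Among the members, the GNAAC letters began 81 bases before the start of H2-Aa, 91 before that of H2-Eb1 and 94 before that of H2-DMb1. From the start of GNAAC to the start of GATTGG there were 32 bases in H2-Aa, 31 in H2-Eb1 and 32 in H2-DMb1, so the spacing differed by 1 base among the 3. The Ctss match began 21 bases before the start. The windows of both H2-DMa entries and of H2-DMb2 held no X-then-Y match, which says only that this exact arrangement is not there. GATTGG alone was in the H2-DMb2 window and in the H2-DMa window from 34125268 to 34125567. Upstream of it, H2-DMb2 read TTAAC where H2-DMb1 has GTAAC, so its miss rested on the first letter of GNAAC.

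The libraries held 7672199 to 14829291 counted reads on genes, and a member had from 34 reads (Ciita in T2314) to 43857 (Cd74 in T2334) in a library. Markers of fat (5 genes, summed level 8546 to 14518 CPM, reads scaled to the size of the library) and of mammary epithelium (6 genes, 226 to 1745 CPM) were detected in every library, as were 4 skeletal muscle genes (578 to 45895 CPM). T2334 stood apart, with a median correlation of 0.798 with the others against at least 0.917 for the rest. It also had the lowest muscle and epithelial sums. The sum of 8 B cell markers, Ms4a1 and Cd79a among them, was 337, 897 and 2644 CPM in T1234, T1334 and T2334 and 3.69 to 6.25 CPM in the other 7 libraries, with none of the 8 at 0 in any of the 7. The sum of 9 T cell markers was 197, 463 and 1094 CPM against 8.41 to 20.9 CPM, and that of 8 dendritic cell markers was 154, 266 and 575 CPM against 47.1 to 87.3 CPM. A sum of 6 genes of lymph node stroma was 340, 707 and 1309 CPM against 0.939 to 13.6 CPM, and 5 of the 6 had 0 reads in at least 1 of the 7 libraries, Ccl21a in all 10. The remaining gene, Cr2, is also among the B cell markers. These 3 libraries hold 2 CFA mice and 1 HFA mouse, so results are given with and without them. In RNA of a whole gland, fewer cells of a type and less RNA per cell cannot be told apart.

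All 8 genes were highest in T2334, next in T1334, then in T1234, and lowest in T2314. For each of them the CFA and HFA libraries overlapped. The mean was higher in HFA than in CFA for 8 of 8, but the median was lower in HFA for 8 of 8, and the SD was larger in HFA for 8 of 8. Levels are in CPM after TMM scaling, which sets libraries on a common scale through their bulk of unchanged genes, and they compare libraries for 1 gene but not genes with each other.

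**Figure D1:**
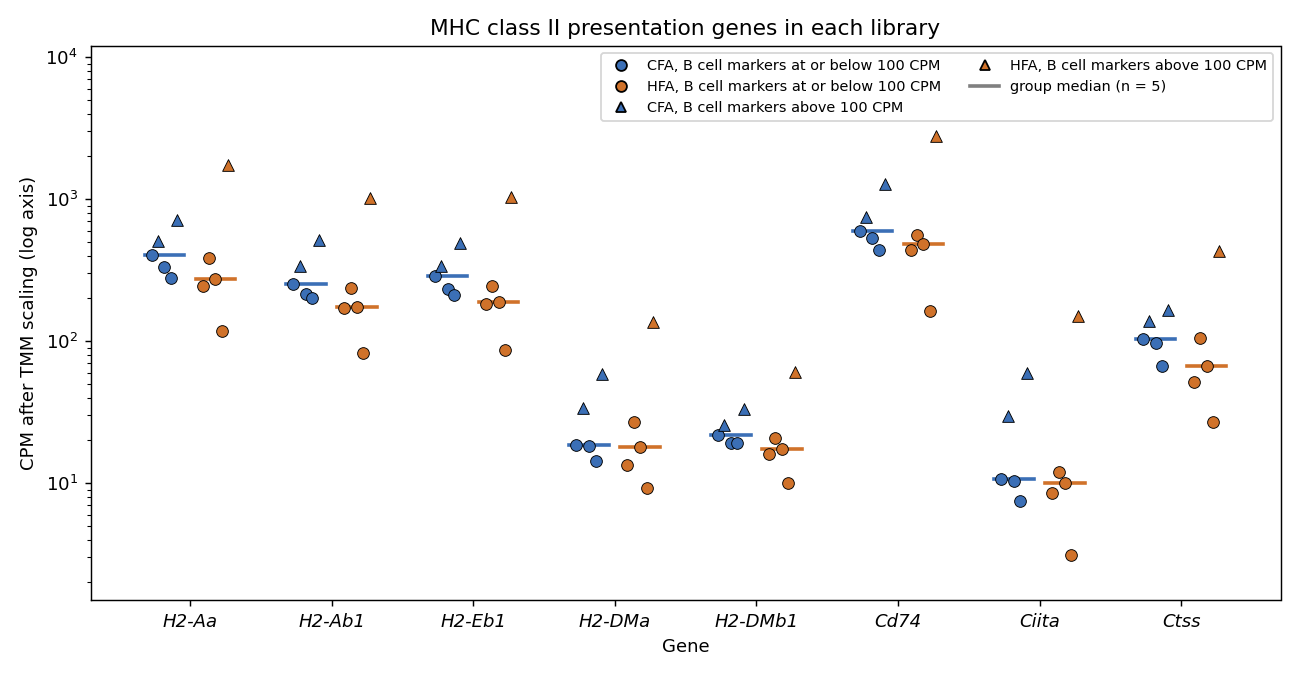
Level of each class II gene in each library, in CPM after TMM scaling on a log axis, with CFA in blue and HFA in orange and lines at the median of 5. Triangles mark the 3 libraries with summed B cell markers above 100 CPM, and these hold the highest values of all 8 genes, while the HFA median lies below the CFA median each time.

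H2-Aa (chromosome 17, 34282744 to 34287823, minus strand, GRCm38) encodes the alpha chain of I-A, the class II molecule that C57BL/6 mice express. Its level was 404, 507, 333, 279 and 718 CPM in the CFA libraries T1224, T1234, T1314, T1324 and T1334, and 245, 384, 276, 117 and 1754 CPM in the HFA libraries T2214, T2224, T2234, T2314 and T2334. The same order of libraries holds for every gene that follows. T2334 alone lay above the CFA range, and the other 4 HFA libraries lay between 117 and 384 CPM, all below the CFA median of 404 CPM. The group means were 448 ± 173 CPM for CFA and 555 ± 677 CPM for HFA (SD, n = 5), a log2 fold change of 0.31 (SE 0.65, edgeR quasi-likelihood test with Benjamini-Hochberg adjustment over all 15610 genes tested, adjusted p = 0.922).

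H2-Ab1 (chromosome 17, 34257689 to 34269419, plus strand) encodes the beta chain that pairs with H2-Aa. It was at 253, 336, 213, 202 and 514 CPM in CFA and at 172, 237, 173, 82.3 and 1012 CPM in HFA. The libraries ranked exactly as for H2-Aa. The means of 304 ± 129 and 335 ± 382 CPM (SD, n = 5) gave a log2 fold change of 0.14 (SE 0.61, edgeR adjusted p = 0.961).

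H2-Eb1 (chromosome 17, 34305867 to 34316674, plus strand) encodes the beta chain of I-E, a molecule that C57BL/6 mice do not assemble because they lack a working alpha chain gene for it. Its transcript was nevertheless abundant, at 290.1, 338, 233, 212 and 494 CPM in CFA and at 182, 245, 189, 86.3 and 1031 CPM in HFA. The means were 313 ± 113 and 347 ± 387 CPM (SD, n = 5), with a log2 fold change of 0.15 (SE 0.59, edgeR adjusted p = 0.958). The alpha chain pseudogene H2-Ea-ps, looked at after the values of the members had been seen, had 2 reads over all 10 libraries, in 2 of them, beside 43397 reads of H2-Eb1. The beta chain of I-E was thus transcribed in every library with next to no reads of its partner.

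Cd74 encodes the invariant chain, which blocks the groove of new class II molecules and guides them to endosomes. It was at 597, 747, 534, 442 and 1283 CPM in CFA and at 438, 557, 481, 164 and 2792 CPM in HFA. The 4 HFA libraries other than T2334 all lay below the CFA median of 597 CPM, and T2214 and T2314 lay below every CFA library. The means were 721 ± 334 and 886 ± 1075 CPM (SD, n = 5), with a log2 fold change of 0.30 (SE 0.67, edgeR adjusted p = 0.929).

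Ctss (chromosome 3, 95526786 to 95556403, plus strand) encodes cathepsin S, the protease that cuts the invariant chain in dendritic cells and B cells. Its level was 104, 139, 97.5, 67.1 and 167 CPM in CFA and 51.9, 105, 66.7, 26.8 and 433 CPM in HFA. T2224 stood just above the CFA median of 104 CPM, and 3 of the HFA libraries stood below every CFA library. The means of 115 ± 38.8 and 137 ± 168 CPM (SD, n = 5) gave a log2 fold change of 0.25 (SE 0.66, edgeR adjusted p = 0.935).

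H2-DMa (chromosome 17, 34119541 to 34139101, plus strand) and H2-DMb1 (chromosome 17, 34153072 to 34160230, plus strand) encode the alpha and beta chains of H2-DM, the peptide editor. H2-DMa was at 18.7, 33.7, 18.3, 14.2 and 59.1 CPM in CFA and at 13.4, 26.9, 17.9, 9.23 and 137 CPM in HFA. H2-DMb1 was at 21.7, 25.9, 19.0, 19.2 and 33.4 CPM in CFA and at 16.2, 20.8, 17.3, 9.97 and 60.5 CPM in HFA. H2-DMb1 spread least of the 8 genes, with its highest library 6.07 times its lowest against 14.8 times for H2-DMa. The means of H2-DMa were 28.8 ± 18.5 and 40.9 ± 54.2 CPM (SD, n = 5), with a log2 fold change of 0.51 (SE 0.74, edgeR adjusted p = 0.886). The means of H2-DMb1 were 23.9 ± 6.02 and 24.9 ± 20.2 CPM (SD, n = 5), with a log2 fold change of 0.069 (SE 0.43, edgeR adjusted p = 0.974). Reads of both may have been set aside as ambiguous or not uniquely aligned, and so be missing from these counts. For H2-DMa, 10.4% of the exon bases overlap Brd2 on the other strand, in counts that did not use strand. For H2-DMb1, 15.8% of the 75-base words in its transcripts also occur in H2-DMb2.

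Ciita (chromosome 16, 10480059 to 10528418, plus strand) encodes the class II transactivator. It was at 10.7, 29.7, 10.3, 7.51 and 59.9 CPM in CFA and at 8.52, 12.1, 10.1, 3.11 and 150.3 CPM in HFA. Its highest library was 48.3 times its lowest, the widest range of the 8, and T2334 stood furthest from the other HFA libraries here. Without T1234, T1334 and T2334 it was 3.88 times its lowest, beside 3.91 times for Ctss. The means were 23.6 ± 22.1 and 36.8 ± 63.5 CPM (SD, n = 5), with a log2 fold change of 0.65 (SE 1.02, edgeR adjusted p = 0.900). Of its exon bases, 3.45% overlap Dexi on the other strand.

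Higher FA intake was not followed by a significant change in any of these genes when all 10 libraries were tested. By the edgeR quasi-likelihood test 0 of 8 passed an adjusted p of 0.05, as did 0 of all 15610 genes tested (0%), and 0 of 8 had an unadjusted p below 0.05, against 1149 of all genes (7.36%). DESeq2 also called 0 of the 8, beside 60 of all genes (0.384%). The fitted values were all above 0, with a median log2 fold change of 0.28 for the 8 and 0.064 for all genes, of which 60% were above 0. The SE exceeded the fold change for each of the 8, so neither a rise nor a fall of this size was detectable with these libraries.

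Among edgeR fits that left out 1 library, the direction of the median rested on T2334. Without it all 8 genes were lower in HFA, by 0.61 (H2-DMb1) to 1.52 (Ciita) on the log2 scale, with a median of -0.86, while leaving out any other library gave medians of 0.13 to 0.54. Without T2334, 55.1% of all genes were below 0. In that fit 6 of the 8 had an unadjusted p below 0.05, where 25.8% of all genes had one, and 0 of the 8 passed adjustment, as did 6 of 15735 genes (0.0381%). The 2 that stayed above an unadjusted 0.05 were H2-DMa at -0.81 (SE 0.46) and Cd74 at -0.85 (SE 0.40). Without T1234, T1334 and T2334, chosen for their B cell markers after the data had been seen, all 8 were again lower in HFA, with a median of -0.38 and a range from -0.51 (Ctss) to -0.016 (H2-DMa), where 49% of all genes were below 0. There 0 of 8 passed adjustment, against 2.98% of all genes, and 0 of 8 had an unadjusted p below 0.05, against 23.4%. When the mean level of the B and T cell genes entered the fit as a covariate, 6 of the 8 were higher and 2 lower in HFA, the median was 0.060 and the values ran from -0.021 (H2-Eb1) to 0.37 (H2-DMa). The SE fell in that fit, for H2-Ab1 from 0.61 to 0.27 and for Ciita from 1.02 to 0.28. It called 0 of the 8, beside 3 of all genes (0.0192%), and 0 of the 8 had an unadjusted p below 0.05, beside 15.2% of all genes. In limma voom with quality weights, which give libraries that stand apart less weight, 0 of the 8 passed adjustment, beside 6.64% of all genes, and all 8 were lower in HFA. Without those weights, limma voom on all 10 libraries also gave 7 of the 8 lower in HFA. Their median there was -0.33, where the median of all genes was 0.012, so the direction depended on the method too.

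**Figure D2:**
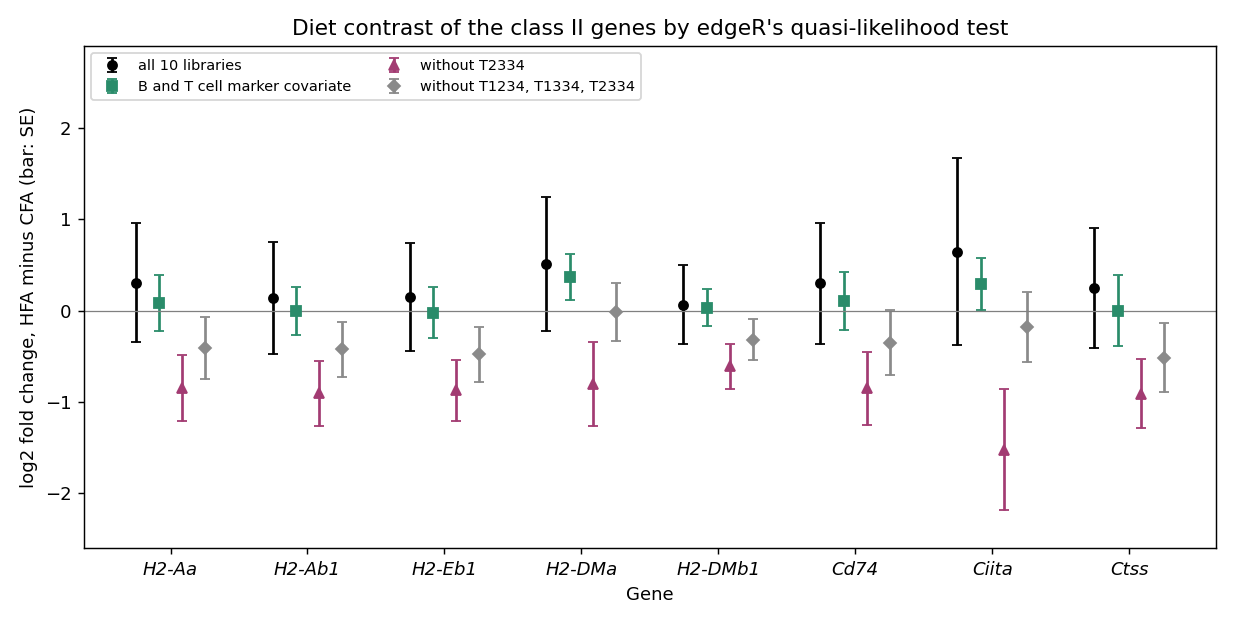
Log2 fold change, HFA minus CFA, of each class II gene by edgeR's quasi-likelihood test, with bars for the SE, in 4 fits of the same contrast. With all 10 libraries the 8 values lie above 0, and without T2334 they lie between -1.52 and -0.61.

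The members did not stand at like levels within a library. Per length of exon, as reads scaled to exon length and library size (RPKM), the medians over the 10 libraries were 325 for Cd74, 123 for H2-Eb1, 94.5 for H2-Aa, 87.8 for H2-Ab1, 74.1 for Ctss, 11.9 for H2-DMb1, 5.36 for H2-DMa and 1.10 for Ciita. Each neighbour in this order held its place in at least 9 of 10 libraries, except H2-Aa and H2-Ab1, where H2-Aa was the higher in 6 of 10, so those levels were not separated. H2-DMb1 exceeded H2-DMa in 9 libraries. This order rests in part on the lengths used, which join all annotated exons of a gene, 1681 bases for H2-DMb1 and 3448 for H2-DMa. In CPM, H2-DMa was 0.741 (T1324) to 2.27 (T2334) times H2-DMb1. Likewise H2-Eb1 (1944 bases) stood above H2-Aa (3798 bases) per length, but below it in CPM in each library. The structural chains and the invariant chain were thus the most abundant per length, the DM editor was lower and the transactivator lowest.

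The classical chains kept a nearly fixed ratio to each other across libraries in which H2-Ab1 itself differed 12.3-fold. In CPM, H2-Aa was 1.38 to 1.73 times H2-Ab1, and H2-Eb1 was 0.962 to 1.15 times H2-Ab1. On the log2 scale the ratio to H2-Ab1 ranged over 0.25 for H2-Eb1, 0.33 for H2-Aa, 0.48 for Cd74, 0.59 for Ctss, 0.90 for H2-DMa, 1.07 for H2-DMb1 and 1.91 for Ciita. Over all 10 libraries the first 4 thus moved with H2-Ab1 more closely than H2-DM and Ciita did. Without T1234, T1334 and T2334 that split did not hold. There the log2 ratio ran from -3.51 to -2.98 for H2-DMb1, a narrower span than the -1.72 to -1.13 of Ctss. For Ciita it ran from -4.66 to -4.03 and for H2-DMa from -3.78 to -3.09.

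Ratios within a library do not depend on how libraries are scaled, and none passed the test between diets. Of 7 ratios, 0 had an unadjusted p below 0.05 in a two-sided exact permutation test over 252 arrangements, whose smallest possible p is 0.00794. The largest difference was for H2-DMa, whose mean log2 ratio to H2-Ab1 was -3.19 ± 0.28 in HFA and -3.48 ± 0.28 in CFA (SD, n = 5), higher by 0.29 in HFA (exact permutation p = 0.135, 0.861 after adjustment over the 7). For H2-Eb1 the difference was 0.0015 (exact permutation p = 0.960). For Ciita it was 0.045 (exact permutation p = 0.937), with SDs of 0.68 in CFA and 0.70 in HFA (n = 5).

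**Figure D3:**
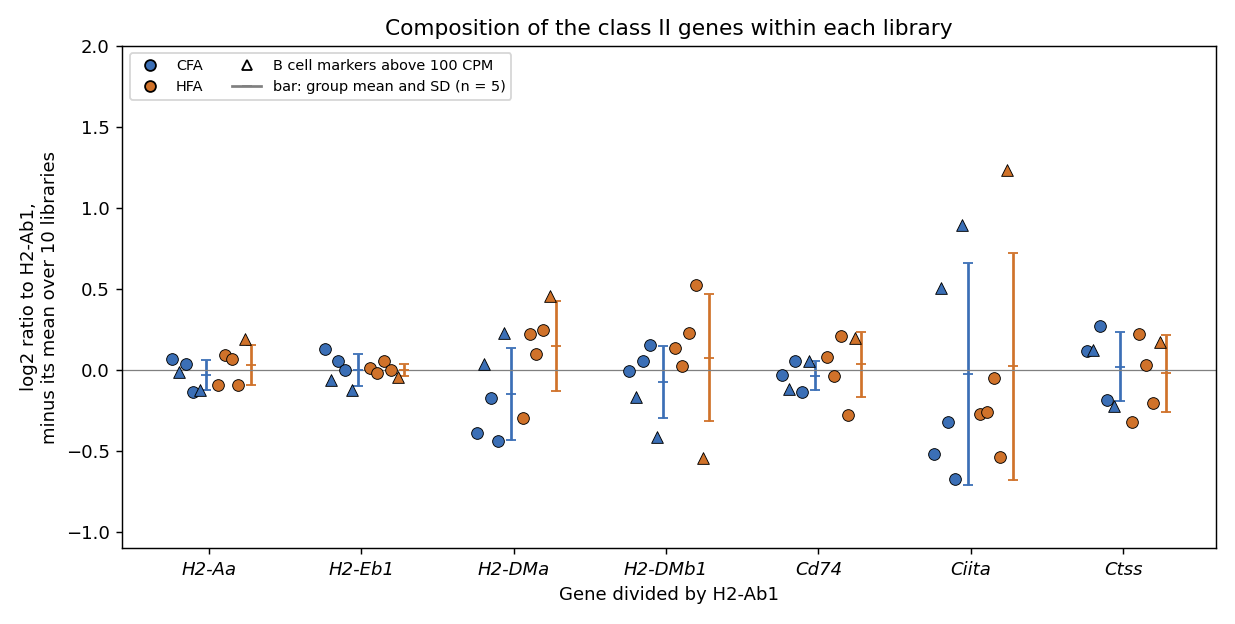
Log2 ratio of each class II gene to H2-Ab1 in the same library, minus its mean over the 10 libraries, with CFA in blue, HFA in orange, bars for the group mean and SD (n = 5), and triangles for the 3 libraries with summed B cell markers above 100 CPM. H2-Eb1 and H2-Aa stay near 0, and Ciita is high in the 3 triangles of both diets.

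Some ratios set the libraries with high B cell genes apart from the rest. The ratios of H2-Aa, H2-DMa, Cd74 and Ctss to H2-Ab1 overlapped between them. Ciita reached 8.84, 11.7 and 14.9 CPM for every 100 CPM of H2-Ab1 in T1234, T1334 and T2334, and 3.73 to 5.83 in the other 7. H2-DMa was 1.30, 1.77 and 2.27 times H2-DMb1 in the 3, and 0.741 to 1.29 times in the other 7, so the lowest of the 3 and the highest of the 7 (T2224) nearly met. The ratio of H2-DMb1 to H2-Ab1 was lowest in T2334 and T1334. The part of B cells in these ratios was not tested.

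**Figure D4:**
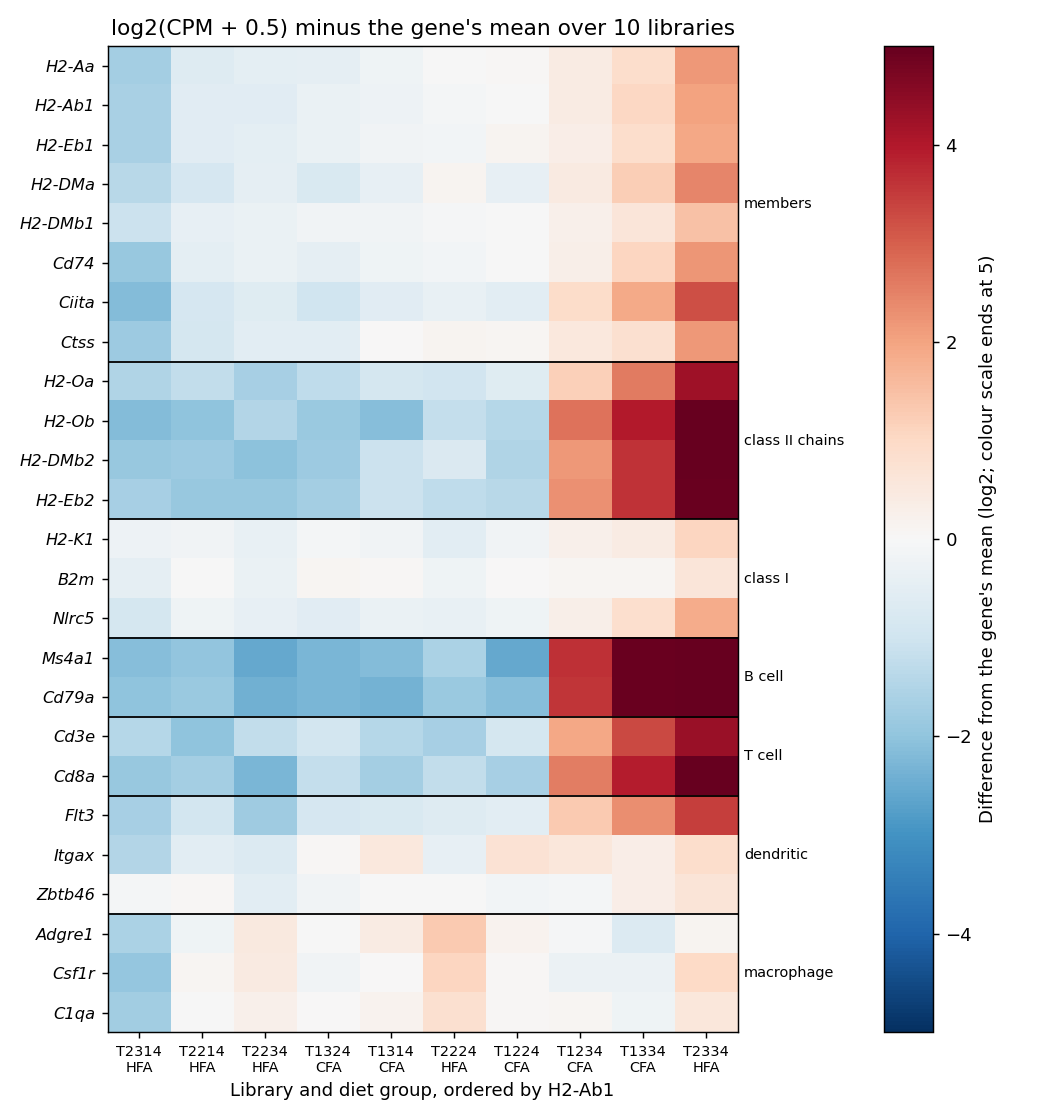
Colour gives log2(CPM + 0.5) of a gene in a library minus the gene's mean over the 10 libraries, red above and blue below, with libraries ordered from left to right by H2-Ab1. Class II members, H2-Ob and the B and T cell genes are red in T1234, T1334 and T2334, and in T2314 members and macrophage genes are blue together.

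At the other end, T2314 had the lowest level of every member, and its sum of macrophage markers was also the lowest. That sum of 9 genes was 174 CPM there and 404 to 1152 CPM in the other 9 libraries, and Csf1r, the receptor that macrophages need, was at 22.9 CPM against 71.3 to 186 CPM. Mertk and Cd163 of the same list were not lowest in T2314. The sum of 8 dendritic cell genes was also lowest there, at 47.1 CPM, but with T2234 next at 55.2 CPM. Of that list Itgax, a gene of dendritic cells and some macrophages, was at 4.02 CPM against 7.38 to 22.6 CPM, while Zbtb46, Flt3, Clec9a and Ccr7 had their lowest value in another library. The genes named here were picked after their values had been seen. The ratio of H2-Ab1 to Csf1r was 2.76, 4.71, 2.35, 2.56 and 7.21 in CFA and 1.84, 1.28, 1.41, 3.60 and 5.70 in HFA, a ratio picked after the values had been seen and given without a test. The groups overlapped, with T2214, T2224 and T2234 below every CFA library and T2314 within the CFA range. The low level of H2-Ab1 in T2314 thus went with a still lower level of Csf1r. The ratio of H2-Ab1 to Itgax, also given without a test, pointed the other way. It ran from 12.2 (T1314) to 33.9 (T1334) in CFA and from 20.5 (T2314) to 44.8 (T2334) in HFA. Without T1234, T1334 and T2334 it was 12.2 to 16.1 in CFA and 20.5 to 27.0 in HFA, with no overlap. The direction of such a ratio thus depended on the marker chosen. With the mean level of macrophage markers as a covariate, 5 members were higher and 3 lower in HFA, the median was 0.043, and edgeR called 0 of the 8, as it did 0 of all genes.

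The other genes of the class II pathway were read from the same fit. Of 45 listed genes 43 were tested, and 0 passed adjustment, as did 0% of all genes. By the same edgeR test 0 had an unadjusted p below 0.05, against 7.36% of all genes. The log2 fold change was above 0 for 34 and below for 9, where 60% of all genes were above 0. That 60% is also the share to set beside the counts by list that follow. H2-Oa and H2-Ob form H2-DO, an inhibitor of H2-DM known from B cells, and H2-DMb2 is a second DM beta chain. H2-Ob was at 54.1, 129.8 and 391 CPM in T1234, T1334 and T2334 and at 1.37 to 3.19 CPM in the other 7. H2-Oa was at 5.15, 14.5 and 46.1 CPM against 0.284 to 1.10 CPM, and H2-DMb2 at 25.1, 69.1 and 192 CPM against 0.851 to 2.93 CPM. H2-Eb2, a second I-E type beta chain gene that did not pass the low count filter, was at 8.56, 22.4 and 56.5 CPM in those 3 and at most 0.390 CPM elsewhere. Their highest and lowest libraries were thus further apart than those of the members, 285-fold for H2-Ob, 226-fold for H2-DMb2 and 162-fold for H2-Oa. H2-Ob was 2.09, 3.88 and 6.46 times H2-DMb1 in CPM in the 3 libraries and 0.0751 to 0.154 times in the other 7. The diet contrast of H2-Oa was 1.15 (SE 1.47), of H2-Ob 1.08 (SE 1.79) and of H2-DMb2 1.01 (SE 1.68) on the log2 scale (edgeR adjusted p = 0.867, 0.905 and 0.905).

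Among 17 genes of class II transcription, 16 were tested, with 12 above 0 and 4 below in HFA. Transcripts of the RFX complex, which binds the X box shown above, varied less than those of any member. Rfx5 was at 11.3 to 35.8 CPM, with T2334 highest, Rfxap at 11.1 to 16.6 CPM and Rfxank at 8.11 to 11.2 CPM. Their diet contrasts were 0.11 (SE 0.29), -0.12 (SE 0.15) and 0.032 (SE 0.13). Other genes of the list, picked after their values had been seen, ranged as widely as the members. Irf8, a factor of dendritic cells, macrophages and B cells, was at 38.6, 88.1 and 234 CPM in T1234, T1334 and T2334 and at 5.58 to 14.3 CPM in the other 7 (0.76, SE 1.09), and Spi1, which encodes PU.1 of the same cells, ran from 2.29 CPM in T2314 to 52.5 CPM in T2334 (0.62, SE 0.74). The highest library was 1.38 times the lowest for Rfxank and 48.3 times for Ciita, or 1.38 and 3.88 times without T1234, T1334 and T2334.

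Of 8 proteases and peptide-supplying enzymes, 5 were above 0 and 3 below. Ifi30, the thiol reductase of the class II pathway, ran from 11.7 CPM in T2314 to 190.1 CPM in T2334 with a contrast of 0.30 (SE 0.74), a range of 16.2-fold like that of Ctss. Lgmn, an asparagine-specific protease of endosomes, was at 57.5 to 139 CPM (0.29, SE 0.22), and Ctsl, cathepsin L, at 191 to 335 CPM (-0.066, SE 0.18), with its lowest value in T2334.

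All 6 tested genes of class II turnover and costimulation were above 0. March1, the ligase that marks class II molecules for degradation, was at 18.9, 34.2 and 119 CPM in T1234, T1334 and T2334 and at 2.19 to 10.5 CPM in the other 7 (1.00, SE 1.03). Cd86, a costimulatory ligand, was at 10.7, 18.7 and 59.3 CPM in the 3 and 2.47 to 8.37 CPM in the other 7 (0.69, SE 0.84). Of 10 class I genes 8 were above 0 and 2 below. Nlrc5, the class I counterpart of Ciita, was at 24.0 to 160.5 CPM (0.29, SE 0.52), and B2m, the light chain of class I, at 1112 to 2293 CPM (-0.10, SE 0.22). Both were highest in T2334 and lowest in T2314, as the members were, over a narrower range of 6.68-fold for Nlrc5 and 2.06-fold for B2m. Without T2334, 38 of the 43 tested pathway genes were lower in HFA, where 55.1% of all genes were, and 18 had an unadjusted p below 0.05, where 25.8% of all genes had one.

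Likeness to H2-Ab1 was measured as the root mean square difference in log2 CPM over the 10 libraries, each gene centred on its own mean. Among 15610 genes the 3 nearest were H2-Eb1 (0.067), H2-Aa (0.103) and Cd74 (0.143), and Ctss was the 6th (0.204). H2-DMb1 was 52nd, H2-DMa 62nd and Ciita 1305th, at 0.287, 0.297 and 0.644. The 10 nearest genes outside the members were Gm20559, Mthfd1l, Sh3bgrl3, Elf4, Mctp2, Ly86, Cyba, Rgs10, Pip4k2a and Mob3a, at 0.198 to 0.229. All points share the libraries described above, so this is a description of 10 libraries.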

How the data were processed

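Gene counts of 10 mammary gland libraries, 5 CFA and 5 HFA by the dose in the labels, were analysed. Per the labels and the study's methods, the authors aligned 75-base paired reads of a kit that does not keep strand to GRCm38 with TopHat2 2.0.14 and Bowtie2 2.2.5, and the deposited counts are raw HTSeq 0.6.1 counts per Ensembl gene, without normalization. The 5 summary lines of each count list were left out. The members and lists were chosen with earlier results of these data known. They are named by rule: the 8 members, genes of fixed pathway and marker lists, and the 10 genes nearest H2-Ab1.

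Symbols, positions and exon lengths came from GENCODE M21. In R 4.3.3, edgeR 4.0.16 took genes past filterByExpr (minimum count 10), TMM factors and estimateDisp, and compared HFA with CFA by its quasi-likelihood test. P-values of the 15610 genes were adjusted by Benjamini-Hochberg, and 0.05 was the threshold. The study also fitted cage, which the labels do not give. Ratios used log2 of CPM plus 0.5 and two-sided exact permutation tests. Alternatives used DESeq2 1.42.0, limma 3.58.1, other scaling and filters, covariates and libraries left out. Only the steps of the edgeR quasi-likelihood test were tried on simulated counts, and the other steps were not. Reads carry no molecular identifiers. Counts of 34 reads or more stood behind each member's value. A gene of the planned B cell marker list is left out and not reported here, which leaves 8. Samples the authors removed were not analysed here.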

Additional observations from a re-analysis of the deposited data

Results flagged for a closer look

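T2334 stood far from the other 4 HFA libraries for each of the 8 genes. Its gap to the nearest HFA library, divided by the range of the HFA group in CPM, was 0.837 for H2-Aa, 0.833 for H2-Ab1, 0.832 for H2-Eb1, 0.862 for H2-DMa, 0.786 for H2-DMb1, 0.851 for Cd74, 0.939 for Ciita and 0.808 for Ctss, above Dixon's 95% critical value of 0.71 for 5 samples. For the log2 ratio of Ciita to H2-Ab1 the same measure in T2334 was 0.726. For the 8 genes, 16 groups were examined and chance gives about 1 in 20, but the 8 genes share the same libraries and are not separate occasions. On the log2 scale 0 of the 16 groups held such a sample. T2334 is also the library with the highest B and T cell markers and the lowest muscle and epithelial markers, and the part of these in the member values was not tested.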

How the results depend on the processing

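The count of members past an adjusted p of 0.05 was 0 in all 25 alternatives, and the smallest adjusted p of a member over them was 0.0833, but the direction of the members depended on the libraries and the method. Their log2 fold change turned negative in 59 of 200 alternative values, and the median of the members ran from -0.86 to 0.54 as libraries were left out in turn. Leaving out 1 library gave -0.85 (without T2334) to 0.57 for H2-Aa, -0.91 to 0.42 for H2-Ab1, -0.87 to 0.39 for H2-Eb1, -0.81 to 0.96 for H2-DMa, -0.61 to 0.27 for H2-DMb1, -0.85 to 0.61 for Cd74, -1.52 to 1.35 for Ciita and -0.91 to 0.51 for Ctss, with the lowest always without T2334. With DESeq2, the likelihood ratio test, RLE scaling and a filter of CPM above 1 in 5 libraries all 8 stayed above 0. H2-DMb1 was at -0.018 with upper-quartile scaling, which moved the median of all genes from 0.064 to -0.0023, and at -0.020 with no low count filter. By limma voom, H2-Aa was at -0.34, H2-Ab1 -0.41, H2-Eb1 -0.40, H2-DMb1 -0.11, Cd74 -0.33, Ciita -0.068 and Ctss -0.42, and with quality weights they were at -0.58, -0.57, -0.60, -0.35, -0.47, -0.47 and -0.75, with H2-DMa at -0.28. That weighted fit called 1037 of all genes (6.64%), against 0 by the main test and 60 by DESeq2. With the B and T cell covariate H2-Ab1 was at -0.0017 and H2-Eb1 at -0.021, and with the macrophage covariate H2-Ab1 was at -0.036, H2-Eb1 at -0.025 and H2-DMb1 at -0.013. Without T1234, T1334 and T2334, added after seeing the data, H2-Aa was at -0.40, H2-Ab1 -0.42, H2-Eb1 -0.48, H2-DMa -0.016, H2-DMb1 -0.32, Cd74 -0.35, Ciita -0.18 and Ctss -0.51. The titles hold a second digit of 2 or 3 whose meaning the labels do not give. Among libraries with a 2 the genes in that order were at -0.56, -0.57, -0.58, -0.38, -0.36, -0.42, -0.93 and -0.67, and among those with a 3 all 8 were higher in HFA, with a median of 0.91. The count of other pathway genes called was 1 with quality weights (Nfya) and 2 among libraries with a 2 (Nfya and Creb1), both lower in HFA, in a fit that called 779 genes higher and 639 lower of 15549. The cause of these changes was not tested, apart from the libraries left out.

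The titles also share numbers between diets. With the replicate block by title digits, 4 pairs and 8 libraries, the genes in the same order were at -0.31, -0.37, -0.38, -0.028, -0.18, -0.33, -0.42 and -0.39, with 0 called. The deviations of same-numbered libraries correlated at 0.298, -0.296, 0.113 and 0.409. These values differ in sign and cannot settle whether the numbers pair the samples, and the labels do not give their meaning. In the block fit the ratio of H2-Eb1 to H2-Ab1 moved to -0.00029 and that of Ciita to -0.043. With Cd74 as the partner in place of H2-Ab1, the ratio of H2-Aa was at -0.0046, of H2-Eb1 -0.068 and of Ciita -0.024, and without T1234, T1334 and T2334 that of H2-Eb1 to H2-Ab1 was at -0.050. Leaving out 1 library in turn, the ratio ran from -0.029 to 0.034 for H2-Eb1, from -0.26 to 0.27 for Ciita and from -0.10 to 0.035 for Ctss, and the smallest adjusted p of any ratio was 0.389. The lowest read count of a member was 34, for Ciita in T2314, and the spread between mice limits all 8.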
